A study of Mus musculus with 22 samples.

Results

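The genes described here encode the proteins of the cytoplasmic ribosome. They were chosen by symbol alone: every row named Rpl or Rps followed directly by a number and at most 1 trailing letter and digit, with the S6 kinases left out, plus Rplp0, Rplp1, Rplp2 and Rpsa. This gave 84 of the 21110 genes in the files, 51 of the large subunit and 33 of the small subunit. Their level was read as FPKM, fragments per kilobase of transcript, scaled to the mapped fragments of the library, in 22 libraries. Of the 84 members, 83 passed the filter for testing (at least 1 FPKM in at least 3 libraries), as did 14139 genes in all. The 1 member that was not tested was Rpl10l, at 0.298 to 1.26 FPKM in the 6 libraries labelled WT at 8 or 10 weeks, 0.0123 in 1 labelled cKO at 2 weeks and 0 elsewhere.

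RNA came from ear specimens of C57BL/6 mice at 2, 8 and 10 weeks after birth. Mice were wild type (WT) or carried a conditional deletion of Socs3, which damps STAT3 signalling downstream of cytokine receptors, driven by keratin 5 (cKO). There were 4 WT and 4 cKO libraries at 2 weeks, and 3 WT and 4 cKO libraries at each of 8 and 10 weeks. Keratin 5 marks basal keratinocytes, so cells of the ear that neither express keratin 5 nor descend from such cells keep the gene. The labels name keratinocytes as the source, while the protocol names whole ear specimens. The labels do not say whether replicates are separate mice. The spread behind the p-values is that between these libraries and may be technical.

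A ribosome consists of a small subunit, which reads the messenger RNA, and a large subunit, which joins the amino acids. Each ribosomal protein is usually present once per ribosome, bound to ribosomal RNA, and the messenger RNAs of these proteins are among the most abundant in most cells. Many of them begin with a run of pyrimidines at their 5′ end, through which the kinase mTOR controls their translation. In skin and hair follicles, dividing keratinocytes make many ribosomes.

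The labels were checked against Socs3, which was at 9.71 to 10.3 FPKM in the 2-week libraries labelled WT and at 1.25 to 12.6 in those labelled cKO (log2 change -0.86 ± 0.43, SE; adjusted p = 0.107). At 8 weeks it was higher in the libraries labelled cKO, at 1.596 to 8.47 against 0.604 to 1.36 FPKM (1.61 ± 0.46, adjusted p = 0.00563). At 10 weeks it was higher by more, at 29.8 to 47.7 against 2.02 to 4.81 FPKM (3.196 ± 0.46, adjusted p = 4.39e-05). Both go against the label, though whole ear holds other cells with the gene. Directions below are therefore those of the labels. Libraries differed in a further respect. Of 1199 genes for olfactory and vomeronasal receptors, which belong to the nose, 34.9% to 74.2% were above 0 in the 6 libraries labelled WT at 8 or 10 weeks, against 3.25% to 7.26% in the other libraries. This signal cannot be told apart from genotype and age, and it touches each comparison that uses those 6 libraries. Relative depth was read from the most common ratio of low values to those of the first library labelled WT at 2 weeks. It differed by 1.73-fold between the shallowest and the deepest library. In the third library labelled WT at 10 weeks this ratio rested on 17 of 50 genes. All 7 basal keratinocyte markers were expressed, with a summed level of 2741 to 8897 FPKM over the libraries.

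The members were highly expressed throughout. Of the 84, 78 had a mean of at least 100 FPKM over the 22 libraries, and 81 lay above the median tested gene in every library. Between 38 and 57 of the 100 genes with the highest FPKM in a library were members. Together they held 11.7%, 11.6%, 11.4% and 11.8% of the total FPKM in the libraries labelled WT at 2 weeks. The libraries labelled cKO at 2 weeks were at 28.8%, 16.2%, 22.8% and 19.3%, with no overlap. Those labelled WT at 8 weeks were at 41.1%, 31.4% and 37.0%, the highest values of the series. At 10 weeks the libraries labelled WT were at 25.6%, 21.5% and 28.9%, and those labelled cKO at 16.6%, 16.5%, 15.4% and 21.98%. The libraries labelled cKO at 8 weeks were at 27.1%, 17.6%, 23.8% and 18.0%.

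**Figure D1:**
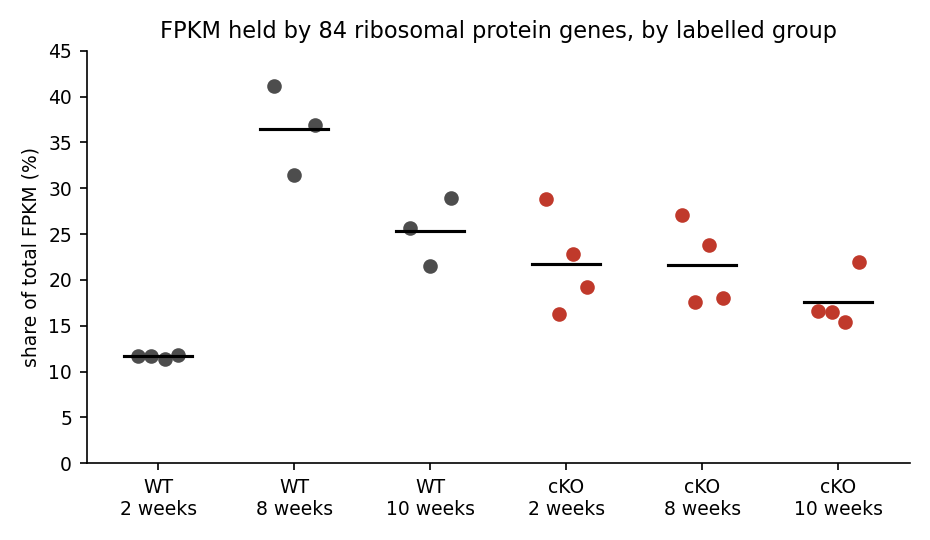
Share of the total FPKM held by the 84 ribosomal protein genes in each library (percent, 1 point per library, grey WT, red cKO, as labelled), with the group mean as a line. The 4 libraries labelled WT at 2 weeks lie between 11.4% and 11.8%, below all others, and the 3 labelled WT at 8 weeks between 31.4% and 41.1%.

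The subunits kept a nearly constant ratio while the total moved. Large subunit genes held 53.3% to 55.1% of the members' FPKM in every library. The order of the members moved more. The highest group mean was that of Rplp1, a protein of the ribosomal stalk, in the libraries labelled WT at 2 weeks (1707 ± 67.2 FPKM, SD, n = 4) and in those labelled cKO at 8 weeks (4284 ± 1510 FPKM, SD, n = 4) and 10 weeks (3076 ± 784 FPKM, SD, n = 4). Rps28 was highest (4351 FPKM) in those labelled cKO at 2 weeks. In those labelled WT at 8 and 10 weeks it was Rpl38, a small protein of the large subunit, at 17536 ± 15871 and 6256 ± 2013 FPKM (SD, n = 3 each). At 8 weeks Rpl38 was the highest member in each of the 3 libraries labelled WT, followed by Rplp1 in the first and second and by Rps28 in the third, and the libraries differed in level. At 10 weeks Rplp1 was above Rpl38 in the first WT library and just below it in the other two, so these neighbours did not differ beyond their spread. The 10 highest members held 25.3% of the members' FPKM in the libraries labelled WT at 2 weeks and 35.9% in those labelled WT at 8 weeks.

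At 2 weeks, 76 of the 83 tested members were higher in the libraries labelled cKO and 1 was lower. Of all tested genes, 17.7% were called higher and 27.1% lower. The median member changed by 1.22 on the log2(FPKM + 1) scale, a 2.33-fold rise, while the median tested gene changed by -0.15. The median was 1.20 for large subunit genes and 1.26 for small subunit genes. Leaving out the first cKO library, which had the highest share, left 61 called higher.

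Among members with roles beyond peptide synthesis, Rpl5 and Rpl11, which bind Mdm2 when ribosome assembly fails, both rose. Rpl5 was at 308, 358, 323 and 348 FPKM in the libraries labelled WT at 2 weeks and at 1475, 609, 1037 and 826 in those labelled cKO. The groups did not overlap (log2 change 1.49 ± 0.28, SE; adjusted p = 5.06e-04). Rpl11 rose by 1.20 ± 0.30 (adjusted p = 0.00365). Rps6, the substrate of the S6 kinases, went from 323, 345, 333 and 311 FPKM to 1214, 496, 845 and 674. It rose by 1.22 ± 0.28 (adjusted p = 0.00254), again without overlap. Rps27a, made as a fusion with ubiquitin, rose by 1.46 ± 0.34 (adjusted p = 0.00231), and Rpsa, also described as a laminin receptor, by 1.04 ± 0.34 (adjusted p = 0.0197). The call for Rpsa was lost without the first cKO library, where the change was 0.84.

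The largest rises at 2 weeks were those of Rps25, Rpl35a and Rpl13a. Rps25, a small subunit protein needed for initiation at some viral internal entry sites, was at 417, 454, 386 and 435 FPKM in the libraries labelled WT and at 2484, 859, 1602 and 1344 in those labelled cKO. Its lowest cKO value was above every WT value (log2 change 1.79 ± 0.30, adjusted p = 1.43e-04). Rpl35a, a large subunit protein whose human gene is mutated in some cases of Diamond-Blackfan anaemia, rose by 1.76 ± 0.35 (adjusted p = 7.99e-04). Rpl13a, which also belongs to a complex that silences certain inflammatory messages, rose by 1.69 ± 0.35 (adjusted p = 0.00103). Rps19, the member most often mutated in Diamond-Blackfan anaemia, rose by 1.35 ± 0.28 (adjusted p = 0.00101). Rpl10, which completes the large subunit late in its assembly, rose by 1.20 ± 0.29 (adjusted p = 0.00295).

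The stalk proteins, which recruit elongation factors to the ribosome, did not move together. Rplp0, the base of the stalk, was at 1208, 1248, 1218 and 1216 FPKM in the libraries labelled WT at 2 weeks and at 2998, 1779, 2050 and 1915 in those labelled cKO. It rose by 0.81 ± 0.22 (adjusted p = 0.00645). Rplp1 rose by 1.06 ± 0.39 (adjusted p = 0.0309), a call lost in 8 of 30 other settings, with changes of 0.88 to 1.09. Its partner Rplp2 was at 916, 938, 871 and 861 FPKM against 128, 684, 715 and 600. Every cKO value lay below every WT value, but the change of -1.02 ± 0.49 did not pass the test (adjusted p = 0.0946). Relative to the median member Rplp2 was lower by 2.32 on the log2 scale (departure -2.32 ± 0.57, adjusted p = 0.0015). The first cKO library stood furthest from its median member, with Rplp2 at 128 FPKM beside 2134. In the others Rplp2 was at 684, 715 and 600 FPKM beside medians of 862, 1602 and 1267.

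The remaining members that were not called higher at 2 weeks were mostly paralogs or genes with a small change. Rps4y2, a paralog of Rps4x, was at 36.4, 32.8, 27.5 and 35.3 FPKM in the libraries labelled WT and 11.99, 22.02, 23.4 and 27.6 in those labelled cKO. It was the 1 member called lower (-0.66 ± 0.26, adjusted p = 0.0418), with groups that overlapped narrowly and a call lost in 7 of 30 other settings. Rpl7l1, a nucleolar relative of Rpl7, changed by -0.17 ± 0.21 and Rps2, at the entry of the messenger channel, by 0.35 ± 0.25. Rpl39l, a relative of Rpl39 best known from the testis, changed by 0.64 ± 0.36. Other paralogs rose with the main family. Rpl22l1 rose by 1.01 ± 0.34 and Rps27l, a target of p53, by 1.34 ± 0.28. Rpl3l, the relative of Rpl3 known from heart and skeletal muscle, was at 1.74, 2.31, 0.863 and 1.13 FPKM against 5.97, 4.19, 7.17 and 7.92, a rise of 1.55 ± 0.37 without overlap (adjusted p = 0.00304). Reads of near-identical copies and of pseudogenes may have been split between these rows.

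**Figure D2:**
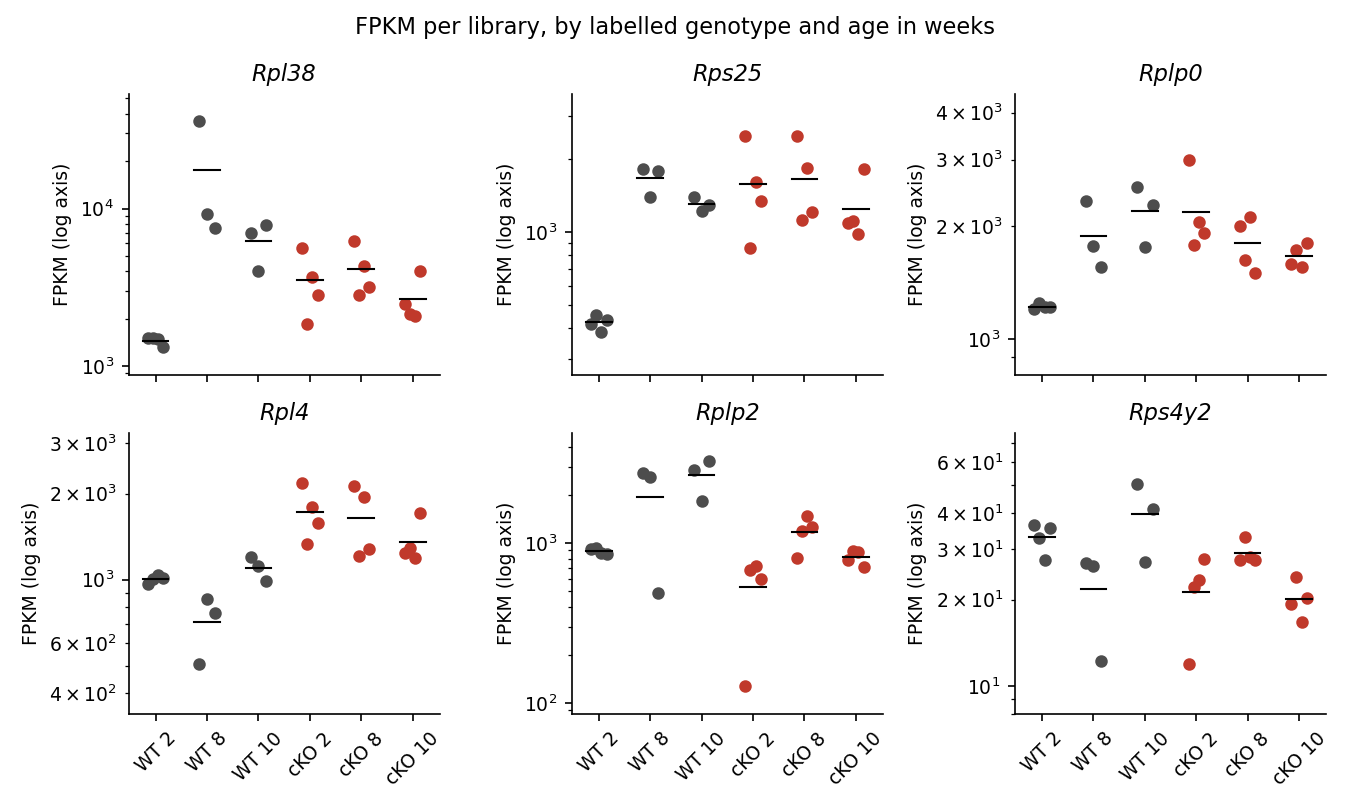
FPKM of 6 members in each library on log axes (1 point per library, grey WT, red cKO, ages in weeks as labelled, line at the group mean). Rpl38, Rps25 and Rplp0 are lowest in the libraries labelled WT at 2 weeks, Rpl4 is lowest in those labelled WT at 8 weeks, and 1 library labelled cKO at 2 weeks holds Rplp2 at 128 FPKM.

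Markers of other cells moved with this comparison, where 17.7% of all tested genes were higher and 27.1% lower. The 7 hair follicle markers in the files were all lower in the libraries labelled cKO at 2 weeks, with summed levels of 7.32 to 46.5 FPKM against 1761 to 2607 FPKM. All 4 tested erythroid markers were higher, with sums of 2704 to 7432 against 458 to 531 FPKM. Of 9 skeletal muscle markers 7 were higher, with sums of 1389 to 2269 against 578 to 862 FPKM. Of 7 fibroblast markers 3 were lower and 1 higher, with sums of 5253 to 7306 against 12890 to 15120 FPKM, and of 7 adipocyte markers 4 were higher. Sums of neutrophil markers were 207 to 431 against 11.1 to 20.4 FPKM, with 33.3% of the 6 tested higher and none lower. Macrophage sums were 473 to 933 against 371 to 424 FPKM, with 25% of 8 markers higher and none lower. Of all these markers only Mpo, of neutrophils, was at 0 in every library of either group, those labelled WT. Their part in the members' change was not tested. In bulk tissue, fewer cells of a type and less RNA per cell cannot be told apart.

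Between 2 and 8 weeks in the libraries labelled WT, 74 of 83 members rose and 2 fell, where 9.69% of all tested genes rose and 65.3% fell. The median member rose by 1.77, or 3.40-fold, and the median tested gene changed by -0.94. This comparison shares the WT libraries of 2 weeks with the one above, so the pair of results is not independent. The largest rise was that of Rpl38, which selects certain homeobox messages for translation in the embryo. It was at 1503, 1498, 1476 and 1318 FPKM at 2 weeks and at 35836, 9229 and 7542 FPKM at 8 weeks. The groups lay far apart, and the first of the libraries at 8 weeks stood apart from the other two (log2 change 3.23 ± 0.46, adjusted p = 4.87e-06). The spread behind this SE is shared by all groups, though the SD was 88.0 FPKM at 2 weeks and 15871 FPKM at 8 weeks. Rpl13a rose by 3.02 ± 0.38 (adjusted p = 1.12e-06) and Rps21 by 2.98 ± 0.43 (adjusted p = 4.97e-06). Rpl37a rose by 2.92 ± 0.42 (adjusted p = 5.45e-06), from 507, 516, 496 and 496 FPKM to 8812, 2772 and 2284. Without the first library at 8 weeks 71 members still rose, with a median of 1.44.

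A few members did not take part in the rise with age. Rpl4, which lines the tunnel through which the new protein leaves, was at 965, 1006, 1035 and 1017 FPKM at 2 weeks and at 507, 857 and 764 at 8 weeks in the libraries labelled WT. The groups did not overlap, and the change of -0.54 ± 0.26 did not pass the test (adjusted p = 0.0622). Rpl7a changed by -0.04 ± 0.26 and Rpl15 by 0.19 ± 0.25. Rps4y2 fell by 0.65 on the log2 scale (adjusted p = 0.0389) and Rpl7l1 fell by 0.54 (adjusted p = 0.0405), but both were higher at 8 weeks after median-of-ratios scaling, by 0.48 and 0.60. That scaling, which sets the median ratio of all genes to 1, moved the median tested gene from -0.94 to -0.08 and the median member to 2.95. It left 81 members called higher and none lower, and the shares of all tested genes called under it are not reported here. In this comparison 7 of 7 hair follicle markers were lower and 3 of 4 erythroid markers higher, with erythroid sums of 3264 to 19006 FPKM at 8 weeks. Of 7 basal keratinocyte markers 6 were lower, with sums of 2741 to 3946 FPKM at 8 weeks against 5401 to 5682 at 2 weeks. Lower too were 7 of 8 tested cartilage markers and 5 of 6 nerve and Schwann cell markers. Of skeletal muscle markers 6 of 9 were lower (66.7%), and 5 of 7 each for endothelium and fibroblasts (71.4%). These shares lay near the 65.3% of all tested genes that fell. The part of all these markers was not tested.

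The start sites of members with large rises and of members not called are shown to set their 5′ ends side by side. RefSeq promoter windows on build GRCm38.p6 matched 62 of the 84 members. Each line gives 40 bases before the annotated start and 15 bases from it, and capitals mark a run of C followed by at least 4 of C or T that begins within 5 bases of the start. The first 3 members below had the largest rises with age among members with 1 window. The last 3 were chosen among members not called for that change, and Rpl4 among them was lower at 8 weeks without overlap:
Rpl38: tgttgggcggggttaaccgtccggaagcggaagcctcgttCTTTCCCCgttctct
Rpl13a: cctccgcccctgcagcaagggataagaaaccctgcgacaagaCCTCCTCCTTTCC
Rpl37a: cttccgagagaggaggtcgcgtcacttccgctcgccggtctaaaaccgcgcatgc
Rpl15: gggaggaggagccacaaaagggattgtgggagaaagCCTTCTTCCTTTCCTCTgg
Rpl7a: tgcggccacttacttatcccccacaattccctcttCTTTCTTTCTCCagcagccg
Rpl4: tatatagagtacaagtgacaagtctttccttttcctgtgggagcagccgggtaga
These windows lie at chr11:114668540-114668594 (plus strand, Rpl38), chr7:45128731-45128785 (minus strand, Rpl13a), chr1:72711220-72711274 (plus strand, Rpl37a), chr14:18270972-18271026 (minus strand, Rpl15), chr2:26910767-26910821 (plus strand, Rpl7a) and chr9:64173347-64173401 (plus strand, Rpl4). A run stood at the start in 29 of the 62 members (46.8%), against 21.2% of 27025 genes with a window and 23.8% of the 9867 tested genes with one. Both kinds of member held examples with and without one. Runs were counted only near the annotated start, so a misplaced start could change the class. Rpl4, counted as without a run, has a stretch of C and T further before its start. The median change between 2 and 8 weeks in the libraries labelled WT was 1.79 for the 29 members with a run and 1.67 for the 32 tested members without. At 2 weeks the medians by labelled genotype were 1.22 and 1.28. The motif CCGGAAG, the core bound by ETS-family factors, was found on either strand of the 300-base window in 25 of 62 members (40.3%), in 9.93% of all genes with a window and in 17.9% of the tested genes. AAGATGGCG, the core of the YY1 motif, was found in 4 members (6.45%), in 1.64% of all genes and in 3.11% of the tested genes. A match of letters is no evidence of binding, and the files' own build is mm9, so only the sequences and not the expression values are tied to these positions.

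At 8 weeks the picture by labelled genotype was split. In the libraries labelled cKO, 3 members were higher and 24 lower than in those labelled WT, where 62.2% of all tested genes were higher and 3.58% lower. The median member changed by -0.53 and the median tested gene by 0.82. Rpl38 was lowest relative to WT, at 6217, 2833, 4342 and 3180 FPKM against 35836, 9229 and 7542, without overlap (-1.78 ± 0.46, adjusted p = 0.00252). Rps21, a small subunit protein, changed by -1.61 ± 0.43 (adjusted p = 0.00297) and Rpl37a by -1.53 ± 0.42 (adjusted p = 0.00389). Rpl41, the shortest ribosomal protein, fell by 1.34 on the log2 scale (adjusted p = 0.00764), a call lost when only these groups were fitted or without the first WT library.

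Rpl4 and Rpl7a were among the 3 members called higher at 8 weeks. Rpl4 was at 2117, 1212, 1951 and 1281 FPKM in the libraries labelled cKO and at 507, 857 and 764 in those labelled WT, without overlap (1.20 ± 0.26, adjusted p = 5.46e-04). After median-of-ratios scaling its change was 0.13 and no longer called, and that of Rpl7a turned to -0.24. Before that scaling Rpl7a, a neighbour of the exit tunnel, had risen by 0.83 ± 0.26 (adjusted p = 0.00823). Under that scaling 68 members were lower and none higher, and the median member changed by -1.60. The shares of all tested genes called under it are not reported here. The count of lower members depended on single libraries and on the fit. Without the first of the libraries labelled WT at 8 weeks it was 3, with a median of -0.25. It was 11 and 13 without replicate 2 or 4 of cKO and 39 without replicate 1. With only the compared groups in the fit it was 3, with 1 higher. The olfactory receptor signal of all WT libraries at this age runs with the comparison, and its part cannot be told apart from the genotype. Of 7 basal keratinocyte markers 6 were higher in the libraries labelled cKO, with sums of 6794 to 8897 against 2741 to 3946 FPKM. Higher too were 7 of 7 hair follicle markers (sums of 20.3 to 300.9 against 3.94 to 10.9 FPKM), 7 of 7 adipocyte markers (749.9 to 2267 against 257 to 678) and 6 of 7 fibroblast markers (7568 to 12060 against 3023 to 3638). So were 7 of 8 cartilage, 7 of 9 skeletal muscle and 5 of 6 nerve and Schwann cell markers. Of 7 endothelial markers 5 were higher (71.4%), near the 62.2% of all tested genes. Of 6 mast cell markers 4 were lower (79.97 to 381 against 707 to 882 FPKM), where 3.58% of all tested genes were. The part of all these markers was not tested.

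At 10 weeks no member was higher in the libraries labelled cKO and 3 were lower, against 20.7% and 4.6% of all tested genes. At an unadjusted p under 0.05 there were 13 members. The median member changed by -0.45. Rplp2 was at 781, 891, 886 and 705 FPKM in the libraries labelled cKO and at 2873, 1846 and 3258 in those labelled WT, without overlap (-1.67 ± 0.53, adjusted p = 0.0258). The call was lost without replicate 1 or 3 of WT or replicate 1 or 4 of cKO, with changes of -1.50 to -1.65. Rpl3l was at 6.39, 4.401, 2.38 and 2.22 FPKM against 7.18, 8.70 and 11.5 (-1.13 ± 0.40, adjusted p = 0.0441), a call lost in 12 of 30 other settings. The skeletal muscle sums were 423 to 789 against 1080 to 1902 FPKM, with 3 of 9 markers lower, and their part was not tested. Rps4y2 was at 19.3, 23.9, 16.8 and 20.2 FPKM against 50.5, 27.1 and 41.2 (-0.91 ± 0.28, adjusted p = 0.0196), also without overlap. The number lower ran from 0, without the first or the third WT library, to 11, without the first WT library of 8 weeks. All 4 erythroid markers were lower, with sums of 673 to 2110 against 4683 to 6916 FPKM, while 4 of 7 fibroblast and 4 of 8 macrophage markers were higher. Their part was not tested.

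Between 8 and 10 weeks in the libraries labelled WT, 2 members rose and 2 fell, where 30.8% of tested genes rose and 0.587% fell. At an unadjusted p under 0.05 there were 22 members, and the median member changed by -0.56. Rpl37a fell by 1.20 on the log2 scale (adjusted p = 0.0468) and Rps15a by 1.12 (adjusted p = 0.0271). Neither was called without the first library of 8 weeks, where the changes were -0.60 and -0.69. Rpl3l rose by 1.40 ± 0.43 (adjusted p = 0.0222) and Rps4y2 by 0.87 ± 0.30 (adjusted p = 0.0337), and neither was called without the third library of 8 weeks. After median-of-ratios scaling no member rose and 4 fell.

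In the libraries labelled cKO the members did not differ detectably with age. Between 2 and 8 weeks limma called none higher and none lower, against 0.382% and 0.849% of all tested genes, and the median member changed by -0.02. Between 8 and 10 weeks it again called none in either direction, against 1.97% and 1.08%. At an unadjusted p under 0.05 there was 1 member in each. All 83 changes were below 0 between 8 and 10 weeks, from -0.66 to -0.08, with a median of -0.44. Libraries of each age varied together over the members, so these 83 changes are not 83 observations. Rplp2 had the largest change between 2 and 8 weeks, 1.39, from 128, 684, 715 and 600 to 803, 1188, 1471 and 1254 FPKM, without overlap (adjusted p = 0.23).

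**Figure D3:**
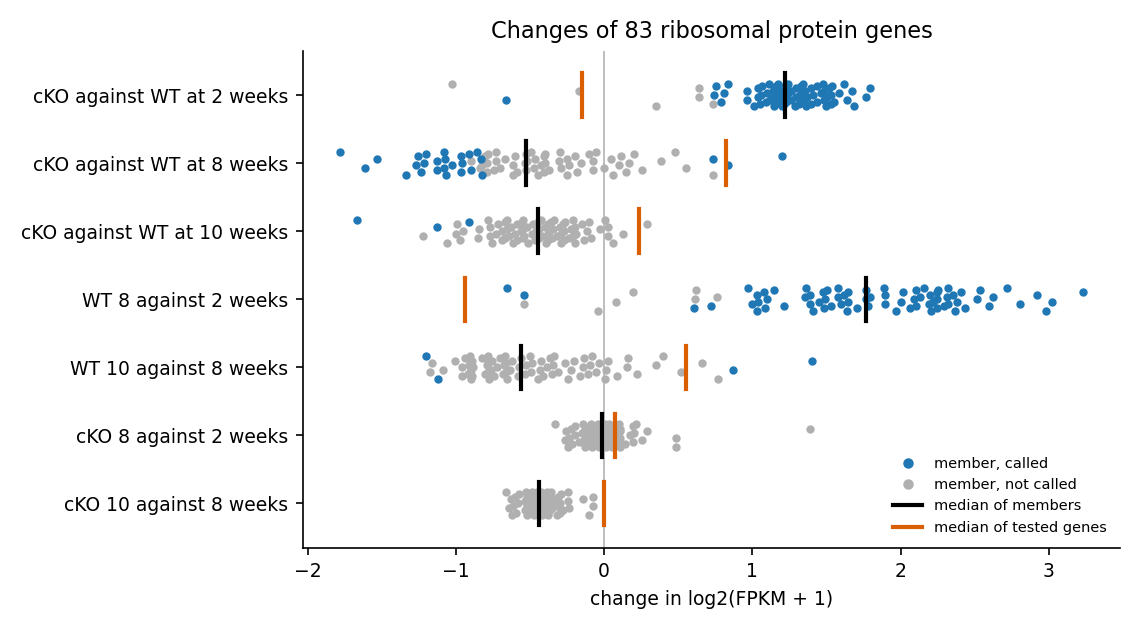
Change in log2(FPKM + 1) of the 83 tested members (points, blue where called) in the 7 comparisons of groups, with the median of the members (black) and of all tested genes (orange). The members' median is 1.22 at 2 weeks and 1.77 for WT 8 against 2 weeks, where the median of all tested genes is -0.15 and -0.94.

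The difference between genotypes was itself compared between ages. From 2 to 8 weeks it shifted downward for 72 members and upward for 1, against 6.93% and 57% of all tested genes. The median shift was -1.76, and it was -2.94 ± 0.63 for Rpl38, -2.92 ± 0.51 for Rpl13a and -2.87 ± 0.58 for Rps21. Rps4y2 shifted upward by 1.14 ± 0.38 (adjusted p = 0.0130), but by -0.08 after median-of-ratios scaling. From 8 to 10 weeks 2 members shifted downward and none upward, against 8.51% and 0.877% of all tested genes. These were Rpl3l (-1.86 ± 0.57, adjusted p = 0.0444) and Rps4y2 (-1.39 ± 0.39, adjusted p = 0.0336). The call for Rpl3l was lost in 21 of 30 other settings and that for Rps4y2 in 10 of 30. At an unadjusted p under 0.05 there were 5 members.

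To describe how members differed among themselves, each library was also centred on its median member. The centre comes from the members themselves, which places them nearer to it than other genes. The counts therefore say nothing of the members as a whole. At 2 weeks 26 of 83 members (31.3%) departed from the median member by labelled genotype, where 84.8% of all tested genes did. At 8 weeks 54 departed (65.1%), a share near the 67.6% of all tested genes, and at 10 weeks 8 (9.64%, against 18.2%). Between 2 and 8 weeks in the libraries labelled WT 59 departed (71.1%, against 94.8%). Between 8 and 10 weeks 31 departed (37.3%, against 30.1%), a number that fell to 0 without the first library of 8 weeks or the second of 10 weeks. In the libraries labelled cKO none departed between 2 and 8 weeks (against 0.297%) or between 8 and 10 weeks (against 1.43%). Rpl38 stood 1.48 ± 0.21 above the median member for WT 8 against 2 weeks and 1.34 below it for cKO against WT at 8 weeks (departure -1.34 ± 0.21). Rpl4 stood on the other side in both, with departures of -2.29 ± 0.25 and 1.64 ± 0.25. The share of Rpl38 in the members' summed FPKM was 2.57% to 2.92% in the libraries labelled WT at 2 weeks and 5.03% to 8.98% at 8 weeks. That of Rpl4 was 1.84% to 2.02% and 0.127% to 0.509%. These comparisons share the WT libraries of 8 weeks.

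Transcript length moved with these departures. The median annotated transcript of the members was 802 bases long, against 2720 for all tested genes. Over the 83 members the change correlated with length at Spearman's rho = -0.53 for WT 8 against 2 weeks and 0.48 for cKO against WT at 8 weeks. It was -0.21 for cKO against WT at 2 weeks. The annotated medians of Rps15a (5179 bases) and Rps20 (3706 bases) look too long for these members, and without both, a choice made after seeing the data, rho was -0.58, 0.55 and -0.25 over 81 members. The points share libraries, and genes are not replicates. The 31 members of at most 700 bases had a median change of 2.25 for WT 8 against 2 weeks, and the 590 other genes of that length 0.68. The 22 members of 1000 to 2500 bases had a median of 1.32, and the 4883 other genes of that length -0.64. At 2 weeks the corresponding medians by labelled genotype were 1.33 and 0.36, then 1.21 and -0.05. After removal of the length trend over all genes, 76 members were higher and 2 lower at 2 weeks, and 76 higher and 1 lower for WT 8 against 2 weeks. For cKO against WT at 8 weeks 2 were then higher and 45 lower. Shares of all tested genes after that removal are not reported here.

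**Figure D4:**
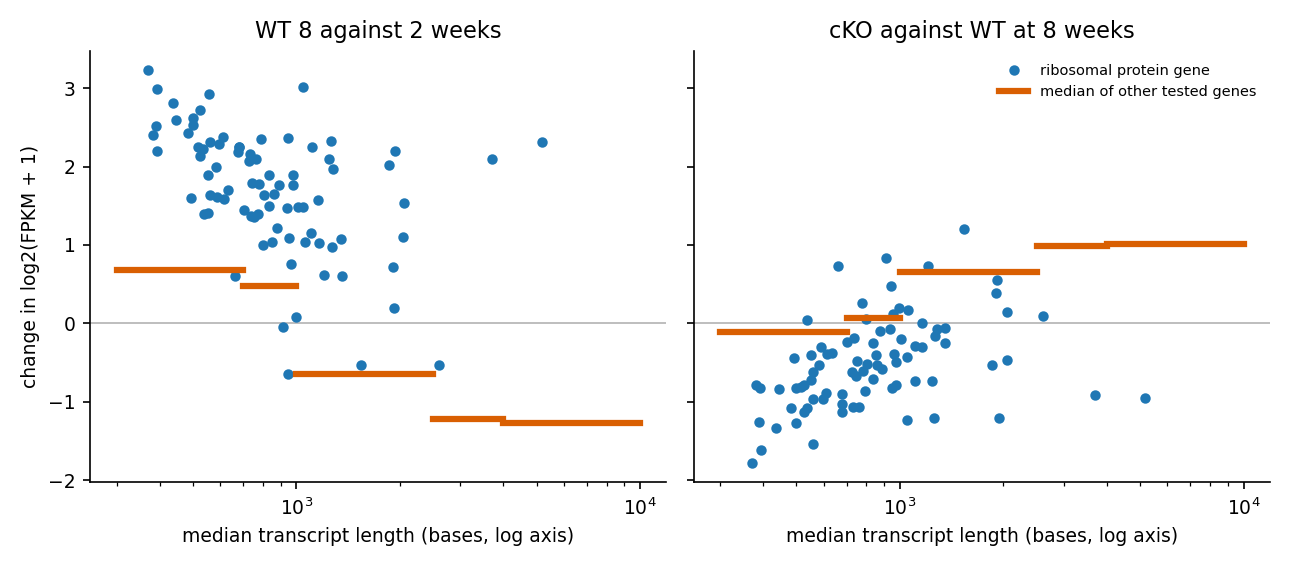
Change in log2(FPKM + 1) of each of the 83 members against its median annotated transcript length in bases (log axis), with the median of the other tested genes in 5 length classes as orange bars. For WT 8 against 2 weeks the bars fall from 0.68 to -1.28, and most members lie above the bar of their length. For cKO against WT at 8 weeks the bars rise from -0.11 to 1.01.

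The members' profiles over the 22 libraries were alike. Of the 83, 64 had a Pearson r of at least 0.9 with the median member, which they help to form, and the median r was 0.957. The least alike were Rpl7l1 (-0.39), Rps4y2 (-0.22), Rplp2 (0.11), Rpl4 (0.16), Rps2 (0.44) and Rpl3l (0.49). Among 247 other genes at 0.9 or more, the 10 most alike were the unnamed gene models Gm12191 and Gm15772, the respiratory chain subunits Ndufa6 and Ndufb4, and Dnajc15. The mitochondrial ribosomal proteins Mrpl30, Mrpl33 and Mrps14, the import subunit Tomm7 and the prefoldin subunit Pfdn5 completed them, with r from 0.977 to 0.992. Gm15772 had group means of 298, 865 and 1250 FPKM in the libraries labelled WT at 2 weeks, cKO at 2 weeks and WT at 8 weeks. The member Rpl26 had 593, 1729 and 2702 FPKM there. Gm12191 had 283, 860 and 1309 FPKM beside 456, 1399 and 2000 for Rpl30. These gene models may share reads with members, which was not tested, so their likeness may not be independent of the members. Pfdn5 was at 127 ± 19.5 FPKM in the libraries labelled WT at 2 weeks and 380 ± 137 in those labelled cKO (SD, n = 4 each). The median r of all tested genes was -0.42.

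Ribosomal proteins whose symbols lie outside the naming rule behaved alike. All 4 genes of that list were higher in the libraries labelled cKO at 2 weeks, among them Fau, made as a fusion with a relative of ubiquitin, Gnb2l1, the scaffold RACK1 of the small subunit, and Rpl36al. Fau went from 416 ± 16.1 to 1056 ± 421 FPKM (SD, n = 4 each; log2 change 1.25 ± 0.35, adjusted p = 0.00755). All 4 also rose between 2 and 8 weeks in the libraries labelled WT, with a median of 2.06.

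For the change with age, the genes that build ribosomes lay near the tested genes as a whole. Of 89 ribosome biogenesis genes, at 2 weeks 24 were higher under the cKO label (27.0%, against 17.7% of all tested genes) and 9 lower (10.1%, against 27.1%), with a median of 0.27. For WT 8 against 2 weeks 4 rose and 64 fell (71.9%, against 65.3% of all tested genes), with a median of -0.99 beside -0.94 for all tested genes. For cKO against WT at 8 weeks 68 were higher (76.4%, against 62.2%) and none lower, with a median of 1.03 beside 0.82. The difference of the list from other genes was not tested. Rrp1, a nucleolar factor, fell by 2.33 on the log2 scale for WT 8 against 2 weeks (adjusted p = 7.79e-08). Gnl2, a GTPase of large subunit assembly, rose by 2.61 ± 0.27 for cKO against WT at 8 weeks (adjusted p = 5.26e-07). Of 20 genes of growth control, such as Myc, Mtor and Larp1, 2 were higher and 10 lower (50%) at 2 weeks (median -0.55), and none rose and 18 fell (90%) for WT 8 against 2 weeks. Eif4ebp2, a repressor of initiation, had the largest change there (-4.55 ± 0.65, adjusted p = 5.08e-06). Of 26 cell cycle genes 3.85% were higher and 38.5% lower at 2 weeks, and 3.85% rose and 80.8% fell for WT 8 against 2 weeks. For cKO against WT at 8 weeks 76.9% were higher and 3.85% lower. The part of cell cycle genes was not tested. Of 14 elongation genes, 7 were higher (50%) and 2 lower at 2 weeks, and 4 rose (28.6%) and 7 fell (50%) for WT 8 against 2 weeks. Eef2, which moves the ribosome along the message, went from 828 ± 10.1 FPKM (n = 4) to 92.3 ± 50.1 FPKM (n = 3, SD), a change of -3.33 ± 0.39 (adjusted p = 5.81e-07).

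The respiratory chain and mitochondrial ribosomal protein lists had medians between those of all tested genes and those of the members. The shares of all tested genes were 17.7% higher and 27.1% lower at 2 weeks, and 9.69% risen and 65.3% fallen for WT 8 against 2 weeks. Of 75 nuclear-encoded respiratory chain subunits, at 2 weeks 48 were higher (64%) under the cKO label and 2 lower (median 0.89), and 53 rose (70.7%) and 7 fell for WT 8 against 2 weeks (median 1.44). Cox8b and Cox6a2, the subunits with the largest changes at 2 weeks, are the muscle forms, and they rose by 2.88 and 2.35. Of 75 mitochondrial ribosomal proteins, 34 were higher (45.3%) and 3 lower at 2 weeks (median 0.54), and 29 rose (38.7%) and 14 fell for WT 8 against 2 weeks (median 0.23). Of 38 proteasome subunits 19 were higher (50%) and 1 lower at 2 weeks. Of 14 long transcripts of broad expression 3 were higher (21.4%) and 4 lower (28.6%) at 2 weeks, shares near those of all tested genes. None of them rose and 12 fell (85.7%) for WT 8 against 2 weeks, where 85.4% of the other genes over 4000 bases fell. The lists' medians relative to each other were not tested.

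**Figure D5:**
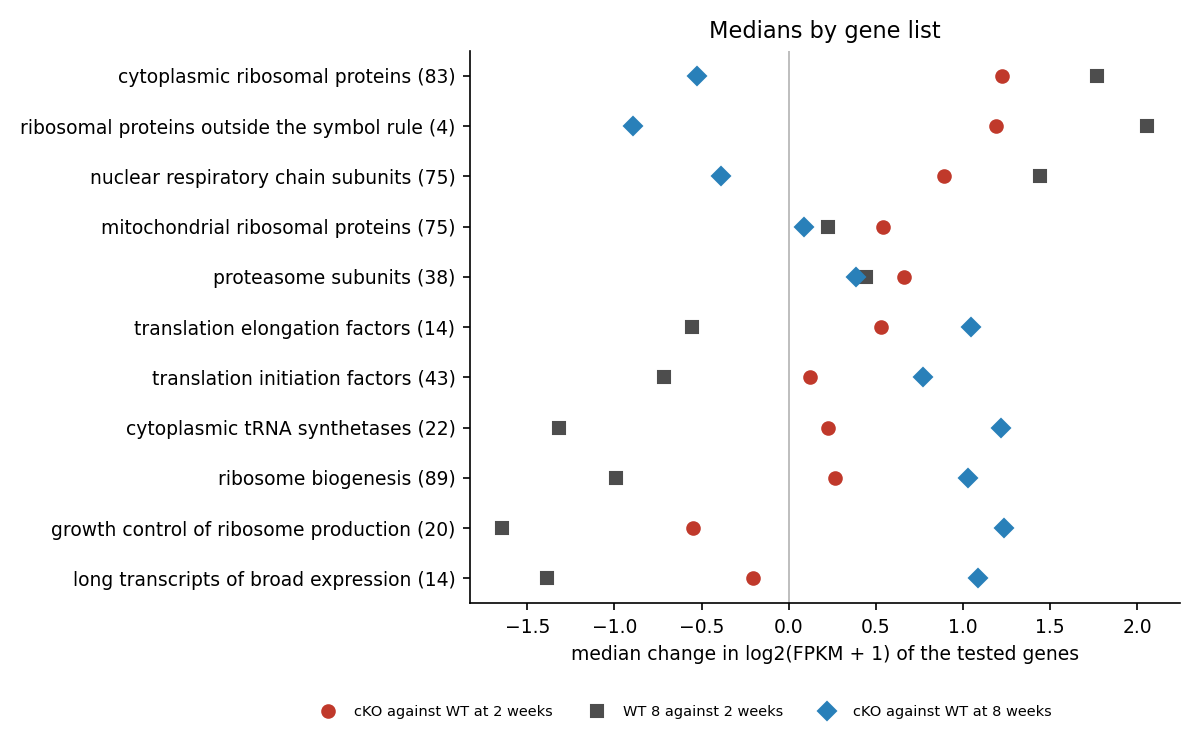
Median change in log2(FPKM + 1) of the tested genes of each list (number in brackets) for cKO against WT at 2 weeks (circles), WT 8 against 2 weeks (squares) and cKO against WT at 8 weeks (diamonds). The cytoplasmic ribosomal proteins, at 1.22, 1.77 and -0.53, lie next to the ribosomal proteins outside the naming rule and the respiratory chain, while ribosome biogenesis genes lie at 0.27, -0.99 and 1.03.

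Small nucleolar RNAs, which guide the modification of ribosomal RNA, lie in introns of several members. The files list 24 of them within 18 members, 21 tested. At 2 weeks limma called none of these higher or lower, and none had an unadjusted p under 0.05, while 17 of the 18 host members were higher. For cKO against WT at 8 weeks 6 were higher (28.6%, against 62.2% of all tested genes), where 2 hosts were higher and 3 lower. For WT 8 against 2 weeks 2 rose (9.52%, against 9.69%) and 6 fell (28.6%, against 65.3%), where 15 hosts rose and none fell. Snora70 changed by -5.49 ± 0.83 for WT 8 against 2 weeks (adjusted p = 8.95e-06), from 142 ± 46.8 FPKM (n = 4) to 9.24 ± 16.01 FPKM (n = 3, SD). FPKM of such short RNAs is imprecise. The libraries do not mark strand, so reads of the intron and of the small RNA are not separated.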

How the data were processed

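Total RNA of ear specimens was sequenced as single reads of 50 bases from libraries that do not mark strand, per the labels' protocols. The submitters' processing notes name TopHat2 2.1.0, Cufflinks and the build mm9. Which annotation or filter was used is not given in the sources used here. The authors deposited 1 FPKM value per gene symbol and library, with no counts, so read depth is unknown. Only relative depth was read, from ratios of low values between libraries. An exact 0 can be a failed estimate.

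Values were taken as log2(FPKM + 1), so fold changes of low genes are understated. limma 3.58.1 (R 4.3.3, empirical Bayes with intensity trend) fitted 6 groups over the 22 libraries and all 14139 tested genes. The groups share 1 estimate of the spread per gene. Where a group varied more than others, the SE and p can understate the uncertainty. Benjamini-Hochberg adjusted p under 0.05 over those genes counts as called, and ± after a change is its standard error. A further fit was centred on the median member of each library. Only the first fit, without centring, was tested on simulated data. Transcript lengths are GENCODE M21 medians, available for 99.2% of tested genes. Summaries were made in Python 3.11.15 with pandas 2.3.3 and numpy 2.4.6, and figures with matplotlib 3.10.9.

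Members, gene lists and marker lists were chosen with earlier results of these data known. Named are members with known roles and paralogs, the 3 largest and smallest changes and departures per comparison, the 10 genes most like the median member, at most 2 called genes of a list, and Socs3. Not all of them are described. Rpl15 and Rps28 fall outside this rule and were chosen after their values were seen. Some items counted in the totals are not reported here by name.

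Alternatives were median-of-ratios scaling, another pseudocount (0.1), a stricter filter (5 FPKM) or none, only the compared groups, the replicate number as a block, removal of a loess trend on length (span 0.5) and leaving out each library. A block within the compared groups and a length correlation without Rps15a and Rps20 were added after the data were seen. Replicates correlated at r = 0.874 to 0.977 and no pair was identical. Only for cKO 8 against 2 weeks did every pair of same-numbered libraries deviate together (r = 0.111 to 0.735).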

Additional observations from a re-analysis of the deposited data

Results flagged for a closer look

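Within groups of 4 libraries, the named members and the members' share of the total FPKM were searched for a library far from the other three. In the libraries labelled cKO at 10 weeks the highest library stood apart for 14 members, and for all of these but Rps2 it was replicate 4. That library held Rplp1 at 4243 FPKM, Rpsa at 1141, Rpl11 at 857, Rps6 at 731, Rpl10 at 1363 and Rpl10a at 1609. It held Rpl41 at 2906 FPKM, Rpl3 at 930.2, Rpl22l1 at 339.97, Rps25 at 1815 and Rpl7a at 1394. It held Rpl15 at 136 FPKM and Rpl36 at 1374, while Rps2 was at 569 FPKM in replicate 3. Elsewhere Rpl38 was low in 1 library labelled WT at 2 weeks (1318 FPKM), Rps4y2 was high in 1 labelled cKO at 8 weeks (33.0 FPKM), and Rpl10l, at 0 in the other three, was at 0.0123 FPKM in 1 labelled cKO at 2 weeks. In all, 17 of 152 such groups of values stood out. Chance gives about 1 in 20, and values of members in 1 library are not independent.

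The genotype difference itself differed between 8 and 2 weeks for Rpl38 (-2.94), Rpl13a (-2.92), Rps21 (-2.87) and Rps4y2 (1.14), and between 10 and 8 weeks for Rpl3l (-1.86) and Rps4y2 (-1.39), each on the log2 scale by the interaction term in limma. Between 10 and 8 weeks the call for Rpl3l was lost in 21 of 30 other settings and that for Rps4y2 in 10.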

How the results depend on the processing

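In this paragraph counts are of members, higher then lower, and comparisons without a named value kept their count within 1.5 times. Shares of all tested genes in these settings are not reported here. Under median-of-ratios scaling, cKO against WT had 78 and 0 at 2 weeks, 0 and 68 at 8 weeks and 0 and 5 at 10 weeks. The WT libraries then had 81 and 0 for 8 against 2 weeks and 0 and 4 for 10 against 8 weeks, and the genotype difference 0 and 80, then 0 and 0. With the length trend removed, the count was 2 lower at 2 weeks, 45 lower at 8 weeks, 6 lower at 10 weeks, 1 lower for WT 8 against 2 weeks, 0 and 7 for WT 10 against 8 weeks and 0 for the last genotype difference. With only the compared groups it was 1 and 3 at 8 weeks, 7 lower at 10 weeks, 0 lower for WT 8 against 2 weeks, 0 and 0 for WT 10 against 8 weeks and 0 for the last genotype difference. With a pseudocount of 0.1 it was 4 lower for WT 10 against 8 weeks and 1 for the last genotype difference. Without a filter it was 0 lower at 2 weeks and 1 for the last genotype difference, and 17 members departed from the median member for WT 10 against 8 weeks. With a filter at 5 FPKM 4 were lower for WT 10 against 8 weeks. Without small RNA genes the members' share in the libraries labelled WT at 2 weeks was 12.9% in place of 11.6%.

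The replicate number as a block gave 4 and 33 at 8 weeks, 7 lower at 10 weeks, 1 lower for WT 8 against 2 weeks and 14 lower for WT 10 against 8 weeks. The block within the compared groups gave 74 and 0 at 2 weeks, 2 and 9 at 8 weeks, 16 lower at 10 weeks, 67 and 0 for WT 8 against 2 weeks, 1 and 0 for WT 10 against 8 weeks and 0 for the last genotype difference. For cKO 8 against 2 weeks, 3 of 4 libraries deviated most like the library of the same number, and 0 members were called with and without the block.

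Leaving out 1 library, the lower count ran from 0 to 2 at 2 weeks, 3 to 39 at 8 weeks, 0 to 11 at 10 weeks, 0 to 2 for WT 8 against 2 weeks and 0 to 10 for WT 10 against 8 weeks. The higher count ran from 0 to 3 for WT 10 against 8 weeks and 0 to 1 for the first genotype difference, and the lower count from 0 to 3 for the last. Departures from the median member ran from 14 to 32 at 2 weeks, 34 to 57 at 8 weeks, 0 to 19 at 10 weeks and 0 to 44 for WT 10 against 8 weeks. Of 3360 other values of 112 called gene results, 180 lost the call and 5 reversed. Reversed were Rpl7a (-0.24) at 8 weeks, Rps4y2 (0.48 for WT 8 against 2 weeks and -0.0776 for the genotype difference) and Rpl7l1 (0.60) under median-of-ratios scaling, and Rpl7l1 (0.58) with the length trend removed. The causes were not tested.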
